A study of Homo sapiens with 4 samples.

Results

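The junctions described here are those that the deposited splice junction files mark with the rare intron ends AT and AC, or with their reverse complement, and that carried at least 20 uniquely mapped reads summed over 4 libraries. There were 265 of them among 225381 junctions of any motif at that minimum and 920015 junctions in all. A further 498 AT-AC junctions fell below the minimum and held 1721 reads together. The members were thus chosen on their motif and summed reads. At the edge of the minimum, junctions of DSN1 with 20 reads and of the sodium channel gene SCN8A with 21 were inside, and 1 of SCN4A with 19 reads was outside.

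The libraries came from HEK293T, a human embryonic kidney cell line, transfected with a vector for SF3B1, either wild type (WT) or with the substitution R625H, K666T or K700E. Cells received 2000 ng of the K700E plasmid but 1000 ng of the R625H or the K666T plasmid; no amount is stated for WT in the labels. Series of 4 values below follow the order WT, R625H, K666T, K700E, and series of 3 ratios to WT the order R625H, K666T, K700E. Each of the 4 groups was 1 library, the cells keep their own SF3B1 genes, and all 3 mutants are compared with the same WT library. A difference between K700E and the rest and the larger plasmid amount therefore cannot be told apart, every test compares libraries and not conditions, and intervals cover counting error only.

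Most introns that begin with AT and end with AC are removed by the minor spliceosome, in which the U11, U12, U4atac and U6atac small nuclear RNAs stand in for U1, U2, U4 and U6. SF3B1 is the largest subunit of the SF3b complex, which binds the branch site and belongs both to the major U2 particle and to the U11/U12 particle. Cancer mutations of SF3B1 are known for the use of cryptic acceptors a short way upstream of the normal acceptor of major-type introns. The minor spliceosome also removes many introns with GT-AG ends, and some AT-AC introns are known to be removed by the major spliceosome. The motif alone therefore does not give the type of an intron, and which spliceosome removes each member was not checked, since intron sequence was not used here.

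The label was checked against GENCODE 29 gene models, where it held for most reads. Some junctions read otherwise on the strand of their gene, and others could not be checked because they were not matched. Of the 265 members, 177 fell on an annotated intron and held 93.6% of the member reads, in 168 host genes. Among these 177, 167 lay on the strand of their gene and so read AT-AC there. The other 10 lay on the strand opposite to their gene, so that on the gene's own strand they read GT-AT. These were introns of ALG6, GLB1L2, SLC8B1, PLEKHM1P1, DSC3, DGCR2, CACNA2D2, ADAT2, OCRL and TXNDC12, and they are called GT-AT introns here. The longest overhang on the TXNDC12 junction was 4 nt, and PLEKHM1P1 is a pseudogene, so the reads of these 2 are less certain.

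The remaining 88 members matched no annotated intron and differed from the rest. Of these, 65 were read in 1 library only, split as 22 for WT, 12 for R625H, 21 for K666T and 10 for K700E, whereas 176 of the 177 matched members were read in all 4 libraries. The unmatched members had a median length of 158 nt against 1359 nt for the matched ones, 20 were shorter than 60 nt, and 3 lay on the mitochondrial chromosome. Being read in a single library was seen for 24.5% of AT-AC, 43% of GC-AG and 2.92% of GT-AG junctions at the same minimum. Results are therefore given for the matched members, with the unmatched ones counted beside them. In 79 members, 11 of them matched, the reads outside the highest library came to fewer than 20, so that these met the minimum only through 1 library. A high value there is part of how they were chosen and is given as a description.

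Many host genes were close relatives, and in several families the exons around the AT-AC introns were alike in sequence. The exon ends of 5 E2F genes, which encode cell cycle transcription factors, are shown from GENCODE 29 transcripts because they are among the more alike. Each line gives the joined exons 5′ to 3′, and the capital is the last base before the intron.
E2F1: tgacagccagcGcctggcctacgtgac
E2F2: ggccaacaagaGgctggcctatgtgac
E2F3: agagaatcaaaGgttagcttatgttac
E2F4: gcagaacagctGtttggcctacgtcac
E2F6: agaaaatgaaaGactagcatatgtgac
All 6 E2F members, E2F5 included, were phase 2 introns, which lie after the second base of a codon. Pairs of these 5 sequences were identical at 13 to 21 of 27 bases, while the introns themselves ranged from 301 to 3768 nt in length over the 6 genes.

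The sodium/proton exchangers SLC9A7, SLC9A8 and SLC9A9 are shown because SLC9A7 returns below.
SLC9A7: gtgactgctctAgtgactaagtttacc
SLC9A8: atttctgcattAgtgctgaagcatatt
SLC9A9: atcacagcactGttgaccaaatttacc
Their introns were all phase 0, between codons, and pairs were identical at 13 to 19 of 27 bases. The voltage-gated sodium channel genes carried AT-AC introns at up to 2 places, near the start and near the end of the coding sequence. The intron near the start, the third of the transcript, was phase 2 in SCN2A, SCN8A and SCN9A, and SCN9A had a further one of phase 0. The formin genes DIAPH1, DIAPH2 and DIAPH3, regulators of actin filaments, likewise shared a phase 2 and a phase 0 position, and DIAPH1 had 1 more member, of phase 1. In all, 27 families of related host genes, holding 68 genes, were grouped by hand after the members were known, and 17 of them were a pair of genes. Over 56 pairs of relatives with the same phase, 6 to 22 of 27 exon bases were identical, with a median of 16. The identity was below 10 bases in 5 pairs, among them CACNA2D2 with CACNA2D3 and RAPGEF1 with RAPGEF5 at 6, so that a corresponding place cannot be read from these bases there. Of the families, 25 had a single place per gene, and in each of those 25 all coding members had the same phase. This count depends on the grouping, since the palmitoyltransferase genes were kept as 2 groups, ZDHHC9, ZDHHC14 and ZDHHC18 with phase 2 and ZDHHC13 and ZDHHC17 with phase 1. Taken as 1 family they leave 23 of 24.

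The host introns differed from other introns in properties that the motif does not fix. Of the 177 matched members, 165 (93.2%) interrupted coding sequence, 5 lay in 3′ UTRs, 1 in a 5′ UTR and 6 in noncoding transcripts. Phases 0, 1 and 2 took 24.2, 37.6 and 38.2% of the coding members, against 46.5, 31.1 and 22.4% of matched GT-AG introns. A member was the first intron of its transcript in 5.08% of cases, against 14.5% for GT-AG. The median length was 1359 nt against 1650 nt, and the members ran from 66 nt to 100276 nt, the longest being in DIAPH2. The exon base before the intron was G in 55 of 167 AT-AC introns (32.9%), as in the E2F genes, against 81.5% of GT-AG introns. The exon ended in AG before 25 of the 167 AT-AC introns and before 56.0% of GT-AG introns. Among the 10 GT-AT introns the last exon base was G in 1.

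The splice sites of matched members were less often shared with another junction than those of GT-AG introns, in all 4 libraries together. The member counts here take AT-AC and GT-AT introns together. Among matched members with 100 to 300 summed reads, 5 of 25 (20%, Wilson 95% interval 8.86 to 39.1%) had any other junction at their donor or acceptor. The shares were 17.3% of 52 members with 300 to 1000 reads and 25% of 48 with 1000 to 3000. For GT-AG introns at the same depths they were 85.7, 90.9 and 95.1%, and for GC-AG introns 76.5, 78.8 and 83.5%. Of the GT-AT introns at any depth, all but those of DSC3 and TXNDC12 had a further junction, in GLB1L2 with 0 unique reads. The share for AT-AC introns without them was not computed. By default the aligner STAR scores an AT-AC junction lower than a GT-AG junction. Its settings are not known from the labels, and the part of this in the difference was not tested.

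**Figure D1:**
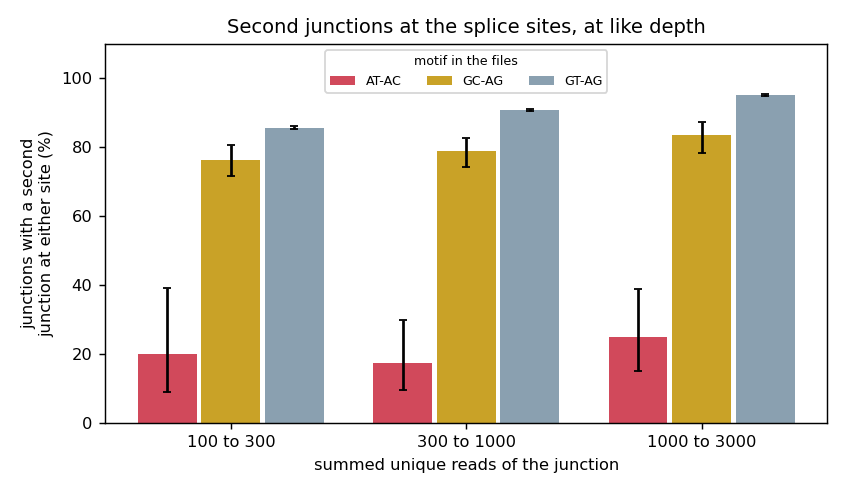
Percent of matched junctions (y axis, bars from 0) that share their donor or acceptor with a further junction, by summed unique reads (x axis) and motif, with Wilson 95% intervals. Junctions with the AT-AC motif in the files, GT-AT introns included, lie at 17.3 to 25% in each depth class and GT-AG junctions at 85.7 to 95.1%.

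In all, 59 pairs of a member and an alternative junction at one of its sites were listed, for 35 members. The alternative had at least 40 reads in 16 pairs and 0 unique reads in that of GLB1L2. A junction can stand in more than 1 pair, and in VEZT, NR2C2AP and CRYZL1 members were each other's alternative. The clearest cases used an acceptor a few bases inside the downstream exon, and the exon sequences printed here show the bases that precede that alternative acceptor, in capitals, within the joined exons of GENCODE 29 transcripts.
THOC2: ggaagagaagaaacatcatAAgtcctcgga
DGCR2: ccgttcgcttcagcagtttcctAGggaagt
CACNA2D2: agaaggagacgcactgcccAGcggacggcc
NR2C2AP: aacaactcgcttcaggctcACactttcccc
VEZT: atatatgctgaaaaactACcccctgaactc
OCRL: gcccagccgcttgccactgtcgAGggtatg
In NR2C2AP and VEZT the alternative acceptor ended in AC like the member's own, so that 2 AT-AC acceptors shared a donor. In the GT-AT introns of DGCR2, CACNA2D2 and OCRL it ended in AG, so that the alternative was a GT-AG intron. In THOC2 it ended in AA.

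THOC2 encodes a subunit of the TREX complex, which couples transcription to mRNA export. The member at chrX:122744815-122745290 (hg19), intron 37 of 38, had 814, 708, 704 and 687 reads. The acceptor 6 nt downstream, which has no canonical motif with this donor, had 200, 218, 188 and 200 reads. Of the reads of both, this was 19.7% (17.4 to 22.3%), 23.5% (20.9 to 26.4%), 21.1% and 22.5%. The intervals of the 4 libraries overlapped.

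DGCR2, a membrane protein gene of the DiGeorge region, had 328, 275, 317 and 380 reads on its GT-AT intron (chr22:19052581-19055612) in the same order. The GT-AG acceptor 9 nt downstream took 29.3, 26.1, 28.4 and 27.9%, again with overlapping intervals. NR2C2AP, a nuclear receptor cofactor gene, split its reads between AT-AC acceptors 6 nt apart, and the upstream one, with 48, 38, 35 and 28 reads, took 17.4, 16.1, 14.6 and 15.7%. In VEZT, which encodes the adherens junction protein vezatin, the AT-AC acceptor 4 nt downstream took 3.12, 4.35, 3.40 and 4.79%. GMFB, encoding glia maturation factor beta, had a noncanonical acceptor 3 nt upstream at 9.41, 10.9, 11.1 and 6.84%, lowest in K700E with 47 of 687 reads. CCDC43 had a noncanonical acceptor 1600 nt downstream at 9.60, 8.61, 9.94 and 9.26%. Of these genes GMFB differed most between mutants, with an unadjusted p of 0.0095 for R625H and 0.0076 for K666T against K700E (two-sided Fisher's exact test on the reads of 2 libraries). Neither passed after Benjamini-Hochberg adjustment over all sites (adjusted p = 0.13 and 0.12), and THOC2 in R625H against WT had an unadjusted p of 0.047 and an adjusted p of 0.34.

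CACNA2D2, a calcium channel auxiliary subunit gene, was the exception by size and rested on few reads. Its GT-AT intron (chr3:50402408-50402505, intron 36 of 37) had 14, 17, 14 and 3 reads in the same order, and the GT-AG acceptor 6 nt downstream had 25, 12, 20 and 20. The downstream share was 64.1% (48.4 to 77.3%), 41.4% (25.5 to 59.3%), 58.8% (42.2 to 73.6%) and 87.0% (67.9 to 95.5%). Against WT no share passed the test, and R625H and K700E differed by 45.6 percentage points (two-sided Fisher's exact test on the reads of 2 libraries, Benjamini-Hochberg adjusted p = 0.028).

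A site share is the percent of the reads at a donor or acceptor that use the member, and calls required 10 percentage points with an adjusted p under 0.05. Of 38 member sites testable against WT, 0 were called in R625H, K666T or K700E by Fisher's exact test, and 2, 0 and 2 had an unadjusted p under 0.05. Over all junctions 0.529, 0.557 and 0.818% of sites were called higher and 0.642, 0.722 and 1.03% lower, which for 38 sites comes to less than 1 call. The sites under the unadjusted threshold were PHB2 and THOC2 in R625H and PHB2 and ZC3HC1 in K700E.

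**Figure D2:**
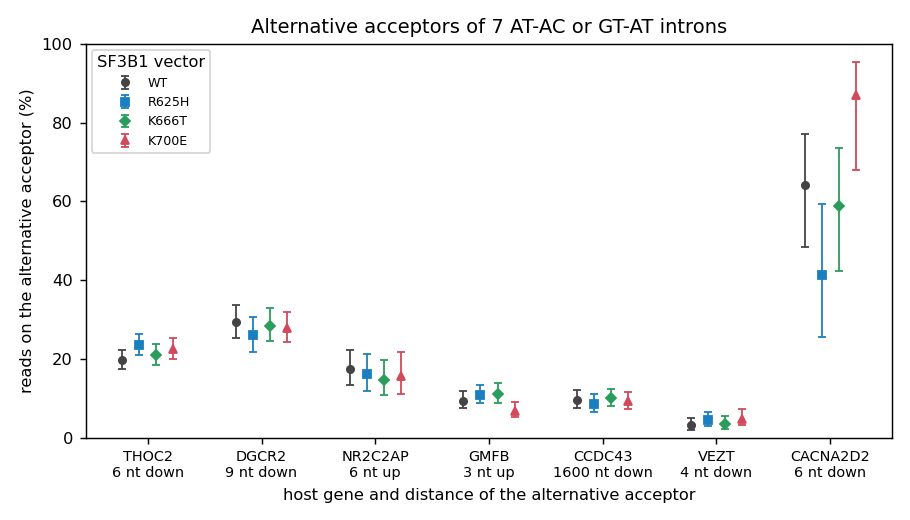
Percent of reads on the alternative acceptor (y axis) of 7 introns (x axis, with the distance and direction of the alternative), by library, with Wilson 95% intervals. THOC2 lies between 19.7 and 23.5% in the 4 libraries, and CACNA2D2 between 41.4 and 87.0%.

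Acceptors 10 to 30 nt upstream, the distance at which SF3B1 mutants are known to act, had almost no recorded reads from AT-AC donors. Only 2 of 171 matched AT-AC and GT-AT introns (1.17%) had a read on any such acceptor, against 12383 of 143906 GT-AG introns (8.60%) and 7 of 1602 GC-AG introns (0.437%). The AT-AC reads numbered 5 of 65592 for WT, 3 of 58622 for R625H, 1 of 60566 for K666T and 8 of 61262 for K700E. These are 0.00762% (0.00326 to 0.0178%), 0.00512% (0.00174 to 0.0150%), 0.00165% (0.000291 to 0.00935%) and 0.0131% (0.00662 to 0.0258%). The intervals of the 4 libraries overlapped. For GT-AG introns the share was 0.0541% in WT and 0.106, 0.0856 and 0.0896% in the mutants, and none of the intervals of the mutants overlapped that of WT. For GC-AG introns it was 0.0244, 0.0229, 0.0197 and 0.0270%. The AT-AC reads all lay on AC acceptors of annotated introns, so none lay on an AG acceptor. STX10 had 2, 1, 1 and 5 of them 11 nt upstream, and CRYZL1 3, 2, 0 and 3 at 21 nt. With 8 reads at most, a change of the GT-AG size was not detectable in AT-AC introns at this depth. An AG acceptor read from an AT donor has no canonical motif. How far the aligner's treatment of such junctions lowers the AT-AC share was not tested, so low recording here is not the same as non-use.

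**Figure D3:**
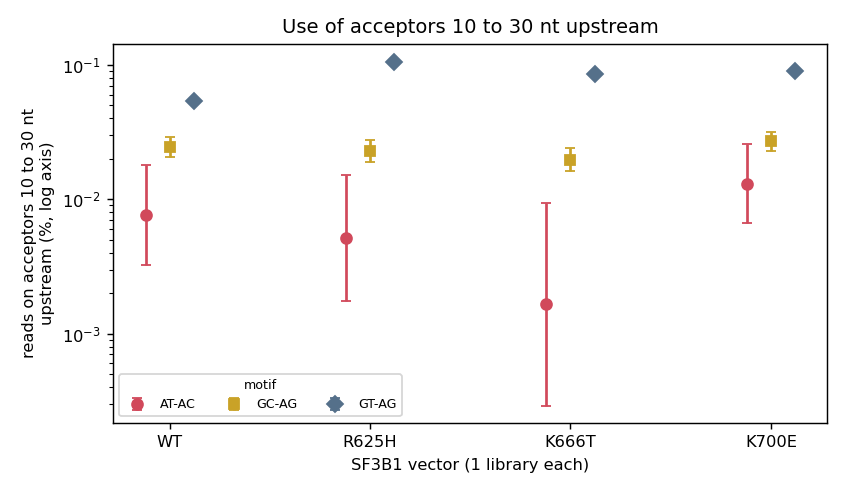
Percent of reads (y axis, log scale) on acceptors 10 to 30 nt upstream, from the donors of matched introns, by SF3B1 vector (x axis) and motif, with Wilson 95% intervals. GT-AG points lie at 0.0541% in WT and 0.0856 to 0.106% in the mutants, while the AT-AC points lie between 0.00165 and 0.0131% with overlapping intervals.

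Splicing at AT-AC introns as a whole took nearly the same share of all junction reads in every library. Unique junction reads numbered between 66015665 and 72034388 per library. Matched members took 0.0912% (0.0905 to 0.0919%) in WT, while R625H had 0.0890%, K666T 0.0883% and K700E 0.0863% (0.0856 to 0.0869%). The log2 ratios to WT were -0.04, -0.05 and -0.08. With all 265 members the ratios were -0.02, 0.01 and -0.08. Matched GC-AG junctions gave 0.01, 0.02 and 0.07 and matched GT-AG junctions -0.01 each. Over reads assigned to genes in place of junction reads, the K700E ratio of all members turned to 0.03, and R625H gave -0.003. WT had 72034388 junction reads and 90939945 gene reads, and K700E had 71122502 and 83025588. The change of denominator shifts the ratios of all motifs in a library alike. The sign in K700E thus depended on the denominator, while its place below GT-AG and GC-AG junctions did not.

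Reads were concentrated in a few genes, and 15 junctions held 46.7% of the matched reads. HSBP1, encoding a heat shock factor binding protein, led with 4951, 4418, 4288 and 5195 reads in WT, R625H, K666T and K700E (chr16:83842352-83842909, intron 2 of 3). HNRNPL, an RNA-binding splicing regulator, had 4240, 3678, 3804 and 3593 (chr19:39334745-39336289). PHB2, encoding the mitochondrial inner membrane protein prohibitin 2, had 3816, 3313, 3127 and 2821 (chr12:7076412-7076838), a log2 ratio to WT of -0.08, -0.22 and -0.42. The lowest of the 4 was thus K700E in HNRNPL and PHB2 and K666T in HSBP1. DDB1, a subunit of a DNA repair ubiquitin ligase, had 2328, 1954, 1982 and 2134 reads. ARPC5, a subunit of the actin-branching Arp2/3 complex, had 1801, 1591, 1628 and 2085, and was highest in K700E at a log2 ratio of 0.23. GARS, the glycyl-tRNA synthetase, had 1366, 1481, 1766 and 1589, with log2 ratios of 0.24, 0.44 and 0.24. The log2 ratios of the host gene itself were 0.25, 0.34 and 0.23 for GARS and -0.07, -0.18 and -0.22 for PHB2. That of ARPC5 in K700E was -0.03. SMS (spermine synthase), WDR1 (actin disassembly), CIAO2B (iron-sulfur cluster assembly), TCEA1 (transcription elongation), SRSF10 (splicing), IPO5 (nuclear import), GATD3A, ARL16 and SPCS2 (signal peptidase) completed the 15, down to 3897 summed reads. GATD3A has a near-identical copy and SPCS2 had 2520 multi-mapped reads beside its 3897 unique ones, so their levels are uncertain.

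**Figure D4:**
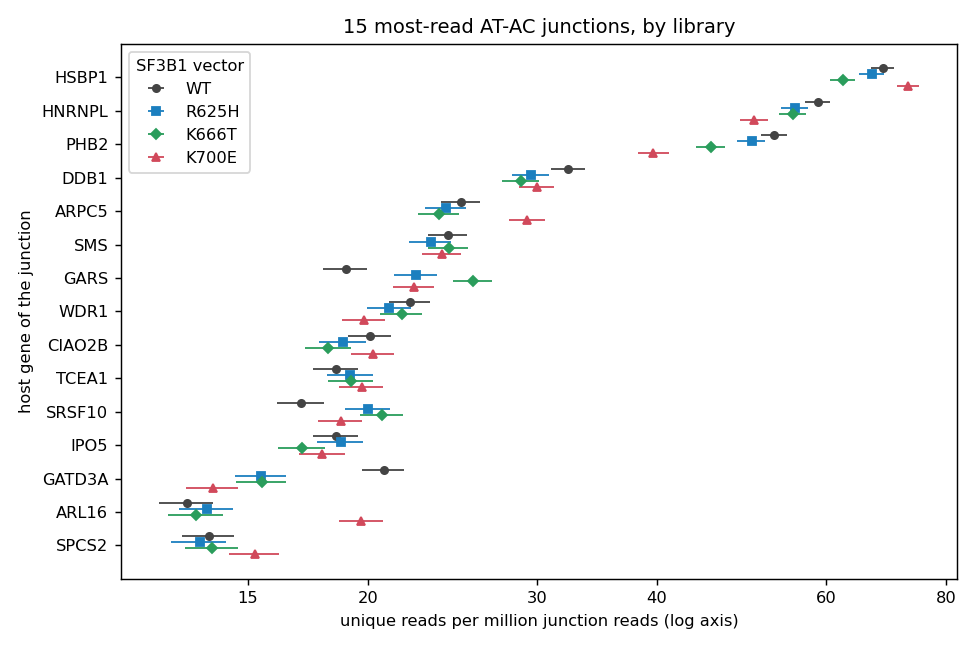
Unique reads scaled to the junction reads of the library (x axis, CPM of junction reads, log scale) of the 15 most-read matched members (y axis, host genes) in the 4 libraries, with 95% counting intervals. Most genes have their 4 points close together, while ARL16 stands higher in K700E (1400 reads against 897 to 933) and GATD3A highest in WT (1496 against 980 to 1065).

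A junction level is the share of a junction in the unique junction reads of its library, and calls required a change of at least 1.5-fold with an adjusted p under 0.05 (Fisher's exact test over all 225381 junctions, Benjamini-Hochberg). Of the 177 matched members, 4 were higher and 1 lower in R625H, 1 higher and 2 lower in K666T, and 4 higher and 10 lower in K700E. Among all matched junctions 1.53% were called higher and 1.1% lower in R625H, 2.11 and 1.13% in K666T, and 5.9 and 4.21% in K700E. The 4 higher in R625H (2.26%) and the 10 lower in K700E (5.65%) lie above these percentages, and the other counts at or below them. Of the 166 matched members that met the minimum without their highest library, 3 were higher and 1 lower in R625H, 1 and 2 in K666T, and 3 and 10 in K700E. Among all matched junctions chosen that way 1.51 and 1.13%, 2.08 and 1.15%, and 5.85 and 4.4% were called. There the 10 lower in K700E came to 6.02% and the 3 higher in R625H to 1.81%. The median log2 ratio of matched members was -0.04, -0.02 and -0.13, against -0.01, 0.02 and -0.02 for all matched junctions. Over all 265 members the counts were 21 higher and 26 lower in R625H, 28 and 28 in K666T, and 19 and 35 in K700E, where 4.33 and 2.55%, 5.23 and 2.54%, and 9.08 and 5.17% of all junctions were called. Most of those calls fell on unmatched members, many of which met the minimum only through 1 library and had to be high there. Over the 186 members that met it without their highest library the counts were 7 and 3, 5 and 5, and 7 and 13, where 2.99 and 1.6%, 3.77 and 1.61%, and 7.76 and 4.64% of junctions chosen that way were called.

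The deeper members stayed close to WT. All 66 matched members with at least 1000 summed reads lay within 1.5-fold of WT in R625H (log2 -0.42 for GATD3A to 0.24 for E2F5) and in K666T (-0.55 for AP2A1 to 0.46 for ZDHHC18, a palmitoyltransferase). In K700E 62 of the 66 did, from -0.83 for AP2A1 to 0.60 for ARL16.

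**Figure D5:**
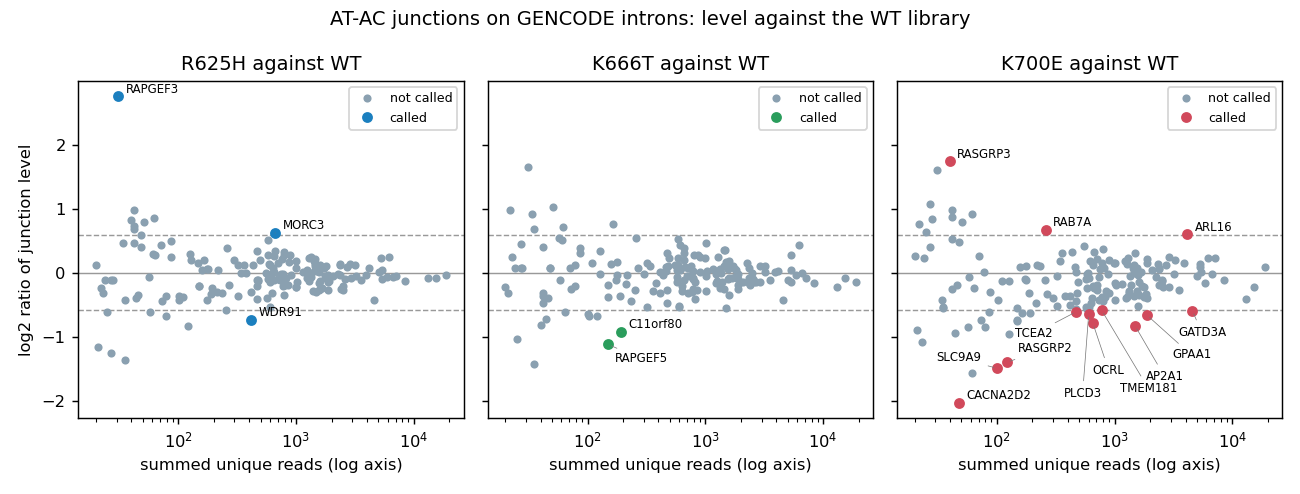
Log2 ratio of junction level to WT (y axis) against summed unique reads (x axis, log scale) for the matched members reported here, with SLC9A7 left out because its junction is not listed for WT. Dashed lines mark 1.5-fold and coloured, named points passed the test, which are 3 in R625H, 2 in K666T and 13 in K700E. RAPGEF3 and RASGRP3 are high in the library through which they met the read minimum.

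The calls in K700E were led by AP2A1, a large subunit of the AP-2 clathrin adaptor (chr19:50306634-50308709, intron 19 of 23). It had 504, 376, 328 and 280 reads, highest in WT and lowest in K700E. The log2 ratios were -0.30, -0.55 and -0.83 (counting SE 0.10, 0.10 and 0.11), and the last passed the call (adjusted p = 9.8e-14, Fisher's exact test). Its host gene changed less, by log2 ratios of -0.14, -0.22 and -0.17. The paralogue AP2A2 hosts a member at the corresponding place, identical at 19 of 27 exon bases, and passed no call.

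ARL16, a small GTPase gene, was the deepest member called higher. Its 98 nt first intron (chr17:79650625-79650722) had 933, 897, 910 and 1400 reads, a log2 ratio in K700E of 0.60 (counting SE 0.06, adjusted p = 7.1e-22, Fisher's exact test). WT, R625H and K666T lay close together and K700E stood apart, while the host gene's ratio was 0.05. GPAA1, which attaches GPI anchors, fell in K700E, with 590, 447, 473 and 368 reads and a log2 ratio of -0.66, beside a host gene ratio of -0.28. GATD3A fell with 1496, 1022, 1065 and 980 reads, a log2 ratio of -0.59 in K700E, beside host gene ratios of -0.32, -0.34 and -0.41.

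OCRL, the inositol phosphatase gene of Lowe syndrome, has a GT-AT first intron (chrX:128674456-128674720) with 198, 167, 175 and 113 reads. It fell in K700E by 0.79 on the log2 scale (adjusted p = 2.4e-05, Fisher's exact test), with a host gene ratio of 0.01. TMEM181 (241, 192, 186 and 158 reads), PLCD3, a phospholipase C gene (206, 130, 136 and 130), and TCEA2, a transcription elongation factor gene (144, 120, 114 and 93), fell in K700E by 0.59, 0.64 and 0.61 on the log2 scale, all near the 1.5-fold bound. The ratios of PLCD3 in R625H and K666T, -0.54 and -0.53, missed only the fold. The host gene log2 ratios of TMEM181, PLCD3 and TCEA2 in K700E were -0.09, -0.08 and -0.32.

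Shallow members made up the rest of the K700E calls. RASGRP2, a Ras guanine nucleotide exchange factor gene, had 49, 25, 29 and 18 reads (log2 ratio -1.40 in K700E), and SLC9A9 had 38, 27, 23 and 13 (-1.49). CACNA2D2, with 3 reads in K700E, gave a ratio of 0.217 (log2 interval -3.72 to -0.35). The host gene log2 ratios of RASGRP2, SLC9A9 and CACNA2D2 in K700E were -0.48, -0.03 and -0.19. RASGRP3, of the same family as RASGRP2, had 6, 10, 3 and 21 reads, with a log2 ratio of 1.74 in K700E. Without K700E it had 19 reads and would not be a member, so this is a description and not a result. The log2 ratio of its host gene was 1.48. RAB7A, a GTPase of late endosomes, had 50, 60, 70 and 79 reads on a junction with over 2000 reads on each neighbour. It rose in K700E by 0.67, beside a host gene ratio of -0.08.

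In R625H the calls included RAPGEF3 and MORC3 upward and WDR91 downward, besides SLC9A7. RAPGEF3, a cAMP-activated exchange factor gene, had 2, 15, 7 and 7 reads. It had 16 reads without R625H and is a member only through that library, so its high value there is a description. MORC3, an ATPase of nuclear bodies, had 136, 192, 169 and 168 reads (0.62), lowest in WT. WDR91, an endosomal protein gene, had 135, 74, 103 and 103 reads (-0.74), highest in WT. In K666T, RAPGEF5 with 53, 42, 23 and 31 reads (-1.12) and C11orf80 with 66, 51, 33 and 42 (-0.92) fell. Host gene log2 ratios in R625H were 0.09 for RAPGEF3, 0.25 for MORC3 and -0.17 for WDR91. Those in K666T were -0.12 for RAPGEF5 and -0.16 for C11orf80.

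SLC9A7 stood apart from all other matched members. Its junction (chrX:46513150-46521450, intron 7 of 16) is not listed in the WT file and had 45, 59 and 28 reads in the mutants. If WT had no more than 3 reads, these were at least 16.4-, 20.6- and 9.45-fold higher. The calls take the missing row as 0 reads. Why it is missing is not known, so the WT level is not known either. Its neighbour junctions had 65 and 78 reads in WT, more than the 43 to 57 in the mutants, and the host gene's log2 ratios were -0.15, -0.06 and -0.25. Such an absence from 1 file was seen for 1 of 139 matched AT-AC and 7 of 117887 matched GT-AG junctions with at least 28 reads in each of the other libraries. Without SLC9A7 the counts of higher calls are 3, 0 and 3. Its paralogue SLC9A8 had 24, 17, 25 and 13 reads.

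To set each junction against its own transcript, its reads were compared with those of the best-read junction on either side. These neighbours lay up to 500 nt away, on the strand that the files give for the junction. The neighbour before a member is the one at lower chromosome coordinates, whatever the strand of the gene. For GT-AT introns that strand is opposite to their gene, so neighbours found there do not stand for their own transcript. This flank ratio could be tested for 143 matched members. Calls needed 1.5-fold and the same test, and the counts were 1 higher and 0 lower in R625H, 1 and 0 in K666T, and 2 and 2 in K700E. All matched junctions gave 0.437 and 0.123%, 0.621 and 0.161%, and 1.3 and 0.988%. SLC9A7 was called in all 3 mutants, so without it the higher calls were 0, 0 and 1. With the unmatched members included, 183 could be tested, and the counts were 7 and 12, 12 and 12, and 9 and 12. Over all junctions 2.82 and 1.39%, 3.29 and 1.46%, and 4.3 and 2.26% were called. Among the 144 of these that met the minimum without their highest library the counts were 2 and 1, 2 and 1, and 4 and 2, beside 1.72 and 0.613%, 2.07 and 0.668%, and 3.01 and 1.52% of junctions chosen that way.

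The K700E calls of the flank ratio were RAB7A, ZC3HC1 and TRAPPC2, besides SLC9A7. RAB7A rose by 0.80 on the log2 scale (adjusted p = 0.021, Fisher's exact test). ZC3HC1, encoding a mitotic entry factor, had 383, 335, 308 and 310 reads. The neighbour at lower coordinates had 415, 412, 370 and 386, and the one at higher coordinates 558, 509, 496 and 829. The flank ratio of ZC3HC1 fell in K700E by 0.62 (adjusted p = 2.0e-05, Fisher's exact test), and the high neighbour of K700E moved with it. TRAPPC2, a vesicle tethering factor gene, had 134, 114, 130 and 89 reads and fell by 0.63 (adjusted p = 0.049, Fisher's exact test). AP2A1 had a log2 ratio of -0.56 in K700E, which missed 1.5-fold (adjusted p = 0.00027, Fisher's exact test).

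Below the level of single calls, K700E leaned downward. The median flank ratio of matched members was 0.00 in R625H, -0.01 in K666T and -0.06 in K700E, against 0.01, 0.01 and 0.00 for all matched junctions. In K700E 85 of 143 members (59.4%) lay below 0, against 50.4% of all matched junctions, while R625H and K666T had 68 and 74. Pooled over the 143, the log2 ratio was -0.02 (-0.04 to 0.00), -0.04 (-0.06 to -0.02) and -0.07 (-0.09 to -0.05). With the neighbour at lower coordinates alone, the K700E median was -0.02. Within each library the median ratio of member to neighbour reads was 0.922, 0.946, 0.942 and 0.874. For GT-AG junctions it was 0.956, 0.956, 0.955 and 0.932, so K700E was lowest there as well. Pooled reads over the mean of both neighbours gave 0.772, 0.762, 0.753 and 0.733 for the matched members. Matched GT-AG junctions gave 0.814, 0.814, 0.817 and 0.795, and matched GC-AG junctions 0.517, 0.523, 0.525 and 0.513. The pooled value was thus also lowest in K700E for both other motifs.

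The E2F members passed no call in any mutant. E2F1 had 551, 487, 476 and 560 reads, E2F2 150, 165, 177 and 161, and E2F3 353, 329, 377 and 432. E2F4 had 507, 435, 496 and 399, E2F5 344, 373, 341 and 274, and E2F6 334, 354, 407 and 358. No library was highest or lowest in all 6 genes. The sodium channel members were read at a low level, with 16, 18, 22 and 5 reads in SCN2A and 8, 3, 6 and 4 in SCN8A. In SCN9A the 2 members had 6, 5, 6 and 11 and 10, 17, 16 and 19 reads. The calcium channel genes CACNA1B (4, 3, 8 and 7) and CACNA1H (7, 9, 13 and 5) were at the same level, where only large changes could be seen.

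Several members lie in genes of the RNA machinery itself, and none of these passed a call. CRNKL1, a core factor of the active spliceosome, had 352, 323, 334 and 337 reads, and CTNNBL1, a partner of spliceosomal proteins, 447, 430, 461 and 384. SRSF10, a splicing regulator, had 1227, 1320, 1420 and 1332 reads, log2 ratios of 0.23, 0.28 and 0.14 with WT the lowest. The SRSF10 gene itself had log2 ratios of 0.16, 0.25 and 0.16. DCP2, the mRNA decapping enzyme, had 125, 163, 172 and 122, and PRMT1, an arginine methyltransferase, 129, 118, 134 and 170. TGS1, which methylates the caps of small nuclear RNAs, had 149, 128, 166 and 146. HNRNPLL, the paralogue of HNRNPL, had 6, 5, 8 and 8 reads on its AT-AC junction, while a noncanonical acceptor 188 nt upstream from the same donor had 381, 349, 353 and 302, or 97.4 to 98.6% of the reads of both.

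Between the mutant libraries, R625H and K666T were closest. Their junction levels differed in 0 matched members in either direction by Fisher's exact test, where 0.441 and 0.453% of all matched junctions were called higher and lower in R625H. Against K700E, 6 members were higher and 1 lower in R625H (2.42 and 3.99% of matched junctions), and 8 were higher and 2 lower in K666T (2.34 and 3.57%). The 1 lower in R625H, TCTN1, and RASGRP3 among the 2 lower in K666T met the read minimum only through K700E. SCN2A, HDLBP, CACNA2D2, OCRL and ZDHHC13 were lower in K700E than in either, and these comparisons share the K700E library. Among flank ratios of matched members, that of AP4E1, an adaptor complex gene, was called higher in K666T than in K700E (38, 40, 62 and 24 reads from WT to K700E), where 0.709 and 0.549% of matched junctions were called higher and lower. The other two pairs of mutants gave 0 calls by Fisher's exact test, with 0.137 and 0.151% of matched junctions for R625H against K666T and 0.812 and 0.671% for R625H against K700E. The site share of CACNA2D2 was the 1 call of a matched member between R625H and K700E, beside 0.635 and 0.61% of all sites. For R625H against K666T and K666T against K700E there were 0 such calls among 38 sites, with 2 and 3 sites at an unadjusted p under 0.05 and 0.419 and 0.416%, and 0.572 and 0.567%, of all sites called.

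Expression of the host genes moved little. Of 167 tested, 0 were at least 2-fold higher in R625H and in K666T and 1 in K700E, against 0.653, 0.694 and 1.31% of all 14847 genes. That 1 was RASGRP3, whose junction met the read minimum only through K700E. None of the 167 was at least 2-fold lower, against 0.0269, 0.00674 and 0.438%. With 1 library per group these ratios carry no test. The components of the minor spliceosome itself were also compared. Of 19 listed genes, 15 were tested and 0 were 2-fold apart, with median log2 ratios of 0.06, 0.14 and 0.03. The highest were in K700E, for SCNM1, a minor spliceosome protein (43.0, 53.5, 55.1 and 66.4 CPM, which are counts scaled to the gene reads of the library, log2 0.62), and ZRSR2, which recognises the acceptor of minor introns (11.4, 12.9, 14.4 and 17.3 CPM, log2 0.59). In both genes the order was WT, R625H, K666T, K700E. RNPC3, a U11/U12 protein, had 17.1, 18.9, 19.1 and 17.5 CPM. The small nuclear RNAs RNU4ATAC and RNU6ATAC were under 1 CPM. The 7 SF3b genes had medians of 0.08, 0.04 and 0.11, with 0 at 2-fold.

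HEK293T markers were present in all 4 libraries, NEFM at 329 to 428 CPM and PAX2 at 1.75 to 2.65 CPM, while NEFL was not matched to the gene files. Markers of leukocytes (PTPRC), hepatocytes (ALB), fibroblasts (COL1A2) and erythroid cells (HBB) were all under 1 CPM, 4 of 4 in each library. NEFM was lower in R625H and K666T than in WT (log2 -0.38 and -0.35), and its part in the results was not tested.

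Among the 88 unmatched members, 13 were read in 3 or 4 libraries and held 8626 of their 16897 reads. The deepest, of 66 nt at chr7:135613200-135613265, had 762, 658, 662 and 874 reads. A 1762 nt junction within POLR1C, an RNA polymerase subunit gene, had 505, 456, 477 and 432 (chr6:43496664-43498425), and a 1300 nt junction within RFX7, a transcription factor gene, 69, 87, 82 and 76. These kept similar levels in the 4 libraries. Junctions of 20 and 21 nt on chromosome 12 were also seen, among them 1 with 0, 215, 233 and 169 reads. The 65 read in a single library had a median of 45 reads, and the deepest had 1055 in R625H and 873 in K666T. Unmatched members took 0.00500, 0.00583, 0.00878 and 0.00481% of junction reads, and 3604 of the K666T reads came from members seen in that library alone.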

How the data were processed

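The authors deposited, per library, read counts per splice junction (uniquely mapped and multi-mapped, with the intron motif and, as another deposited value in nt, the longest overhang) and read counts per gene. The submitters' processing notes name HTSeq, STAR 2.5.3a and the build hg19/GRCh37, without settings. The members and lists were chosen with earlier results of these data known. Introns of GENCODE 29 (GRCh38) were matched to the hg19 junctions by the lengths and order of introns, at least 2 falling together, on either strand of the files; 14796 of 18243 protein-coding genes matched. Intron sequence was not used here. Levels, flank ratios and site shares were compared by two-sided Fisher's exact tests on the reads of 2 libraries with Benjamini-Hochberg adjustment over all junctions (Python 3.11.15, numba 0.67.0, scipy 1.17.1), tested on simulated data. Log2 ratios add 0.5 reads; host gene ratios use CPM with a prior count of 10 and a minimum of 1 CPM in 1 library. edgeR 4.0.16 and DESeq2 1.42.0 gave alternative scaling factors only, since 1 library per group allows no count model. Named are the called members, the 15 with most reads, those at the read minimum and members of the E2F, SCN, CACNA1 and RNA machinery groups; some members in these groups are not reported here, unmatched members are given mostly as counts, and the POLR1C and RFX7 junctions, the exchanger and formin families and the alternative acceptors were chosen after their values were seen. Intron retention was not measured.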

Additional observations from a re-analysis of the deposited data

Results flagged for a closer look

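The mutant libraries were also compared with each other, and the members below differed between them (two-sided Fisher's exact test on the reads of 2 libraries, Benjamini-Hochberg adjusted over all junctions, at least 1.5-fold). Of 177 matched members, 6 were higher and 1 lower in R625H than in K700E, and 8 higher and 2 lower in K666T than in K700E, while 0 differed between R625H and K666T. Of all matched junctions 2.42 and 3.99%, 2.34 and 3.57%, and 0.441 and 0.453% were called.

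R625H exceeded K700E by log2 ratios of 0.844 in ZDHHC13, a palmitoyltransferase-like gene, 1.86 in SCN2A, 1.17 in HDLBP, 2.43 in CACNA2D2, 0.589 in PAXIP1 and 0.669 in OCRL. K666T exceeded K700E by 0.6 in ZDHHC13, 1.4 in AP4E1, 2.08 in SCN2A, 1.3 in HDLBP, 2.1 in CACNA2D2, 0.595 in TRAPPC2, 1.11 in SLC9A7 and 0.679 in OCRL, with -0.598 in IFT80. TCTN1 and RASGRP3, counted among the members higher in K700E, are left out, because they met the read minimum only through K700E. ZDHHC13, SCN2A, HDLBP, CACNA2D2 and OCRL appeared in both comparisons, which share the K700E library.

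ZDHHC13 had 154, 172, 151 and 103 reads from WT to K700E, and PAXIP1, a DNA damage response gene, 221, 246, 250 and 176. AP4E1, an adaptor complex subunit gene, had 38, 40, 62 and 24, and its flank ratio was also higher in K666T than in K700E, by 1.29. IFT80, an intraflagellar transport gene, had 90, 90, 70 and 110. HDLBP had few reads, 34, 36, 41 and 17. The share of the CACNA2D2 donor that used the GT-AT acceptor was 45.6 percentage points higher in R625H than in K700E.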

How the results depend on the processing

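Of 224 recomputed values 149 kept their direction and stayed within the stated bounds, 74 moved and 1 reversed. No paired analysis was possible because each group is 1 library, and for the same reason no library could be left out. Per gene reads, the pooled log2 ratio was -0.00268 in R625H and 0.0335 in K700E, the latter the reversal. That denominator shifts all motifs of a library alike. Over junction reads, K666T gave -0.0224 with an overhang of at least 30 nt and -0.0462 with matched members. At 5 reads, level calls upward were 33 in R625H and 29 in K700E. At 100 reads, level calls higher and lower were 7 and 6 in R625H, 10 and 7 in K666T and 9 and 13 in K700E, and flank calls 3 and 2, 4 and 2, and 4 and 1. With matched members alone, level calls were 4 and 1, 1 and 2, and 4 and 10, and flank calls 1 and 0, 1 and 0, and 2 and 2. Leaving out SLC9A7 as well gave 3 and 1, 0 and 2, and 3 and 10 for level and 0 and 0, 0 and 0, and 1 and 2 for flank; members that met the read minimum without their highest library gave 7 and 3, 5 and 5, and 7 and 13 for level and 2 and 1, 2 and 1, and 4 and 2 for flank, and the matched ones among them 3 and 1, 1 and 2, and 3 and 10, and 1 and 0, 1 and 0, and 2 and 2. These sets were chosen after seeing the data. The K700E flank median was -0.0227 with the neighbour at lower coordinates alone. Site share calls became 2 in R625H and 2 in K666T at 10 reads, and 1 in K666T and 1 in K700E with multi-mapped reads added. Acceptors 3 to 100 nt upstream took 0.211, 0.240, 0.209 and 0.168% of reads in the 4 libraries, WT first. Those reads included 61, 72, 66 and 47 at 3 nt in GMFB and 48, 38, 35 and 28 at 6 nt in NR2C2AP. The cause of the shifts between settings was not tested, apart from the smaller sets at 100 reads and with matched members. Reads per junction limit what could be seen: members under 100 reads needed changes well over 1.5-fold to be called.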
